A study of Mus musculus with 22 samples.

Results

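Bcl11a and Bcl11b, the 2 genes described here of 21883 protein-coding genes in RefSeq on assembled mouse chromosomes, encode related zinc finger transcription factors of striatal and cortical neurons. They were chosen with earlier results of these data known. Their members were all sites listed for either gene in the authors' table of differences between cocaine and saline, and all peaks of the cocaine and saline lists within 100 kb of either gene. The rule gave 4 of the 956 listed sites, all at Bcl11a, and 2 of the 3467 cocaine peaks, both within Bcl11b. It gave no site at Bcl11b, no cocaine peak near Bcl11a and none of the 725 saline peaks near either gene. Bcl11a was selected on the number of its listed sites, while Bcl11b has none. That number rests on the counts, fold changes and adjusted p-values of cocaine against saline in these libraries. Those values are therefore given as a description, without a test of the treatment.

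BCL11A and BCL11B bind DNA through zinc fingers and repress many of their targets, together with the BAF (SWI/SNF) chromatin remodelling complex and the NuRD corepressor complex. In mouse, Bcl11b is needed for the maturation of medium spiny neurons, which make up most of the striatum, and for corticospinal neurons, and Bcl11a helps to set the identity of cortical projection neurons and represses globin genes of the embryo in red cell precursors. E2F3a, the protein profiled, is an activator of the E2F family, held in check by the retinoblastoma protein and best known for driving genes of DNA replication.

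E2F3a was mapped by CUT&RUN, which frees DNA from around an antibody-bound protein with a tethered nuclease, in the nucleus accumbens, the ventral part of the striatum, of wildtype C57BL/6J mice. The mice received cocaine at 20 mg/kg or saline by intraperitoneal injection in the home cage on 7 days in a row, and bilateral tissue punches were taken. The labels list 7 cocaine E2F3a libraries, from 2 female and 5 male samples, and 4 saline E2F3a libraries, from 2 female and 2 male samples. Neither the age of the mice nor whether a library came from 1 animal is given in the sources used here, and the peak files name the treatment but not the antibody. The values record occupancy and not expression, so the labelled tissue could not be checked against its marker genes.

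At each site the authors' table lists 6 cocaine and 4 saline normalized counts without naming the libraries. Which of the 7 labelled cocaine E2F3a libraries the 6 are is not given, so the sex mix of the cocaine counts is not known. The libraries are numbered here by position, as cocaine 1 to 6 and saline 1 to 4. The numbers are not the replicate numbers of the labels. In each library the counts up to 20 reads were whole multiples of the count worth 1 read. That count was 0.641 to 2.21 in the cocaine libraries, 0.384 to 0.636 in saline 1 to 3 and 1.88 in saline 4. Reads recovered over the listed sites ran from 41437 to 153621 per library. The 4 Bcl11a sites together held 23 to 62 reads in each cocaine library and 79 to 190 in each saline library.

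Bcl11a carried lower sites at its start, upstream of it and in an intron, with no called peak near, while Bcl11b carried cocaine peaks in its body and no listed site. The libraries come from bulk nuclei, so a lower signal in each cell and a signal in fewer cells cannot be told apart. All coordinates are mm10. Bcl11a occupies chr11:24076564-24173558 and is 96995 bp long, and Bcl11b occupies chr12:107910403-108004145 and is 93743 bp long.

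**Figure D1:**
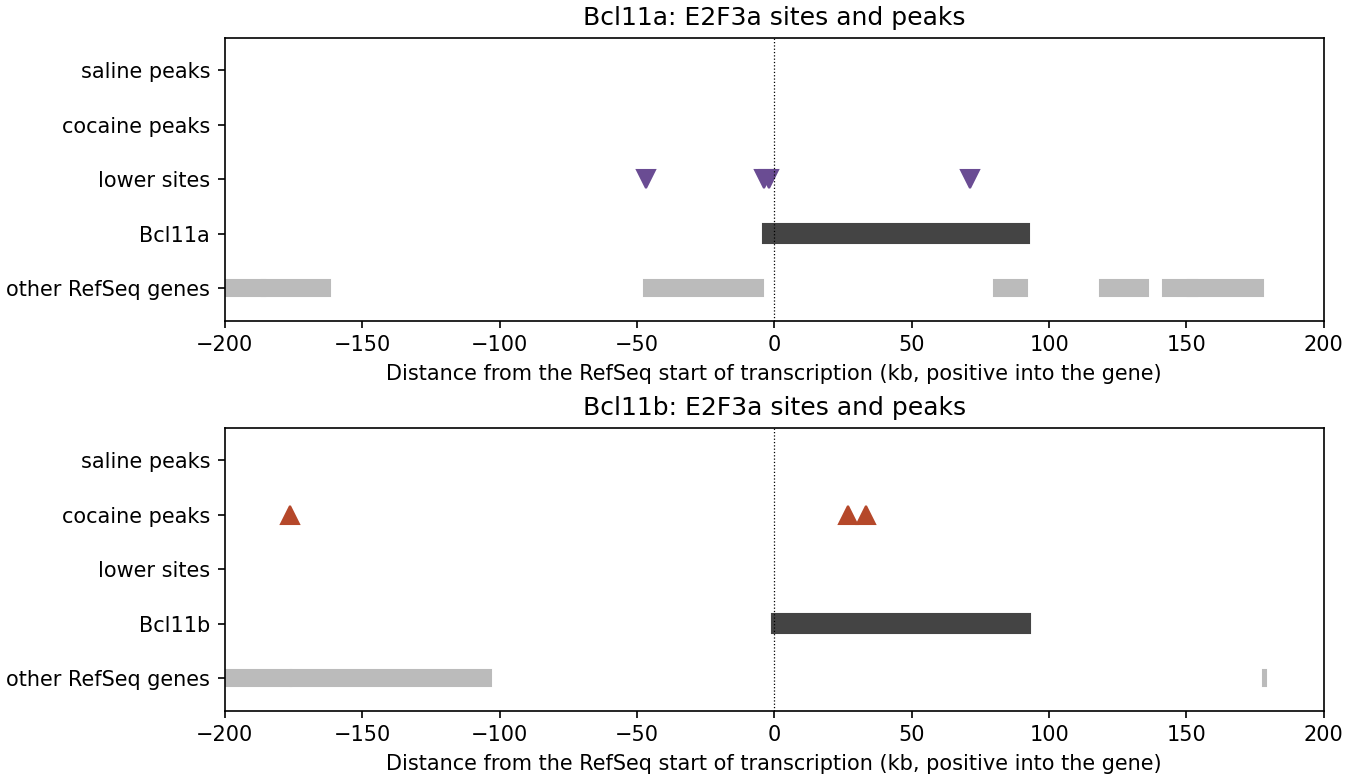
Sites and peaks at Bcl11a (top) and Bcl11b (bottom), by distance in kb from the start of transcription at the end of the printed RefSeq promoter, positive into the gene. Dark bars are the gene, grey bars other RefSeq genes within 200 kb of it, downward triangles the centres of lower sites and upward triangles peak summits (the triangles are markers and not widths). The 4 lower sites lie at Bcl11a, and the 2 cocaine peaks within Bcl11b lie 26.9 and 33.3 kb into the gene.

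The sequences before the starts of both genes are shown because the sites and peaks are placed relative to them and because the 2 starts differ in base composition. They are from RefSeq (GRCm38.p6, the assembly behind mm10), 250 bases each, read 5′ to 3′ on the strand of the gene, with CpG pairs in capitals. The first is chr11:24080445-24080694 on the plus strand and the second chr12:108003415-108003664 on the minus strand.
Bcl11a: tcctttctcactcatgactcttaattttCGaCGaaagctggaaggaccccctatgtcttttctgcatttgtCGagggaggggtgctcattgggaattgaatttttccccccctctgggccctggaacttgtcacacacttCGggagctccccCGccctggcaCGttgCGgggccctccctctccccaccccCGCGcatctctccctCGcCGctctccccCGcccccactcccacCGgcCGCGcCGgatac
Bcl11b: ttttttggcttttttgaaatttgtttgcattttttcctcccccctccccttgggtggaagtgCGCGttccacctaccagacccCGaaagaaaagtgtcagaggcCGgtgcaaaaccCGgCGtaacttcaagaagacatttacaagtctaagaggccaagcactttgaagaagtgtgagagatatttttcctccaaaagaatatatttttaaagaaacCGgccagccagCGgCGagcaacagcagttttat

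Over the 300 bases from 250 before to 50 after these starts, the Bcl11a promoter had 63% G and C and 23 CpG pairs. The Bcl11b promoter had 43% and 9 CpG pairs. Among the 32851 RefSeq promoters of that length the medians were 52.7% and 7, so Bcl11a was above both medians and Bcl11b below the first and above the second. Neither promoter held the E2F motif in any of the forms TTTCCCGC, TTTCGCGC, TTTGCCGC and TTTGGCGC on either strand, which 2.26% of the promoters did. The same forms without their first T were also missing from both and were found in 9.57%. The BCL11A motif TGACCA was in neither promoter and in 13.6% of all. No listed site lay within either window. The nearest was 1145 bp before the Bcl11a window, and the Bcl11b window lay 26720 bp from the nearest cocaine peak.

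Bcl11a has more than 1 start. The transcripts that the authors' annotation used begin at 24078056 and 24078173, the RefSeq gene begins at 24076564 and the printed RefSeq promoter ends at a start at 24080695. The sites at the gene's 5′ end lie between the first and the last of these starts, except for the first 62 bp of the upstream one. Distances of the sites from a transcript start, given below, use starts in the authors' annotation and not the printed one. For Bcl11b the printed start, at 108003414, lies inside the RefSeq gene, whose 5′ boundary is at 108004145. The printed bases of both genes thus lie within the RefSeq gene, and the composition and motif results describe these starts only.

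The upstream promoter site (chr11:24076502-24077500, at -556 bp from a transcript start) had normalized counts of 26.07, 34.97, 28.78 and 39.46 in saline 1 to 4, and from 11.97 through a median of 17.2 to 21.13 in the cocaine libraries. Every cocaine library lay below every saline library. The site had the highest mean normalized count of the 4 Bcl11a sites in either group. Its means were 16.6 ± 3.69 (SD, n = 6) after cocaine and 32.3 ± 6.04 (SD, n = 4) after saline, on 7 to 75 reads per library. The authors' deposited table lists it with a log2 fold change of -0.96 and an adjusted p of 0.004. The site covers the beginning of the RefSeq gene, which lies 70 bp from the end of the noncoding A830031A19Rik (chr11:24033275-24076494).

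The downstream promoter site (chr11:24078302-24079300, 129 bp after a transcript start) began 801 bp further on. Its counts were 23.90, 17.17, 22.25 and 48.86 in saline 1 to 4, and ran from 10.06 through a median of 15.4 to 22.13 in cocaine. The groups overlapped here, since cocaine 5, the highest of its group, lay above saline 2. The means were 15.4 ± 4.24 (SD, n = 6) and 28.0 ± 14.2 (SD, n = 4), and the authors' deposited table gives a log2 fold change of -0.87 and an adjusted p of 0.004. Without saline 4, whose count was the highest, the log2 ratio of the means fell in size to -0.46.

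The intron site (chr11:24151202-24152300, intron 2 of 4 of a Bcl11a transcript) lay 71901 bp beyond the promoter sites and 8823 bp after the start of a shorter Bcl11a transcript. Counts were 9.78, 17.17, 13.05 and 39.46 in saline 1 to 4, and from 2.08 through a median of 7.74 to 11.07 in cocaine. Cocaine 3 lay above saline 1, so the groups overlapped by 1 library each. The means were 7.39 ± 2.98 (SD, n = 6) and 19.9 ± 13.4 (SD, n = 4), with a log2 fold change of -1.43 and an adjusted p of 0.0014 in the authors' deposited table. Saline 4 again stood highest, and without it the log2 ratio was -0.85.

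The far upstream site (chr11:24033402-24034400) was annotated by the authors as distal intergenic, at -43656 bp from a Bcl11a transcript start. In RefSeq it starts 127 bp inside the noncoding A830031A19Rik, at the end of that gene away from Bcl11a. Counts were 12.49, 10.17, 8.82 and 20.67 in saline 1 to 4, and from 0 in cocaine 3 through a median of 3.31 to 8.85 in cocaine 5. Of the cocaine libraries only cocaine 5 reached the saline range, and it lay above saline 3 by less than the count worth 1 read in either library. The means were 3.79 ± 3.01 (SD, n = 6) and 13.0 ± 5.31 (SD, n = 4), on 17 reads in all cocaine libraries together and 73 in the saline ones. The log2 fold change in the authors' deposited table was -1.78, with an adjusted p of 0.00029, and this was the widest fall of the 4 sites and the one on the fewest reads.

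**Figure D2:**
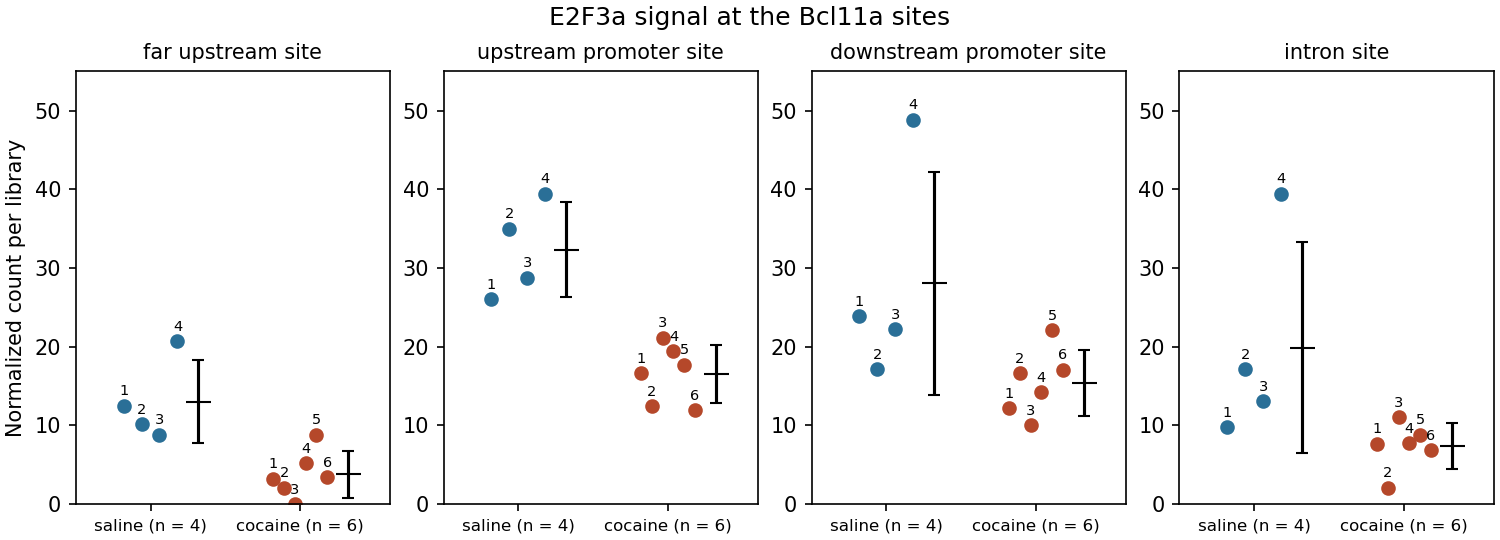
Normalized count in each library at the 4 Bcl11a sites, in saline (4 libraries) and cocaine (6 libraries), numbered by their order in the authors' table. Crosses with bars are the mean and SD. Saline 4 is the highest of all libraries at each of the 4 sites, and the groups are fully separate at the upstream promoter site.

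All 4 listed Bcl11a sites were called lower at an adjusted p below 0.05, and 49.6% of all listed sites were. The groups did not overlap at 1 of the 4, against 48.1% of the 474 lower sites. Only listed windows have values, since the largest window p in the table was 9.99e-05, so the rest of Bcl11a and all of Bcl11b have none. Whether Bcl11b differed between the treatments was therefore not analysed here.

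Summed over the 4 Bcl11a sites, the normalized count was 72.24, 79.48, 72.9 and 148.45 in saline 1 to 4 and ran from 33.28 in cocaine 2 to 57.53 in cocaine 5. Every cocaine library was below every saline library in this sum. Each of the 4 sites was listed for being lower, so this separation is a description and adds no support. The means were 43.1 ± 8.29 (SD, n = 6) and 93.3 ± 36.9 (SD, n = 4), a log2 ratio of -1.11. Without saline 4 the saline mean was 74.9 ± 4.00 (SD, n = 3) and the log2 ratio -0.80. Saline 4 was the highest saline library at 58.6% of all lower sites and at 65.1% of the 473 higher sites, and at 4 of the 4 Bcl11a sites. It also had the largest count per read of the saline libraries, and the part of this in the Bcl11a values was not tested.

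**Figure D3:**
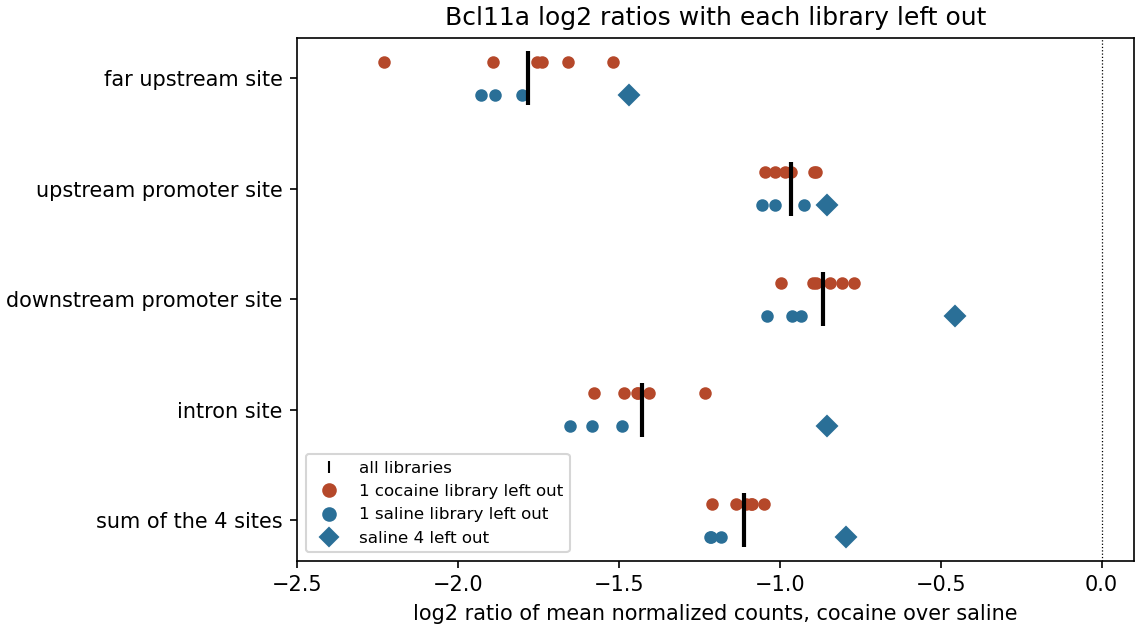
Log2 ratio of mean normalized counts, cocaine over saline, at the 4 Bcl11a sites and in their sum, with all libraries (bars) and with each cocaine or saline library left out in turn (points). The diamonds without saline 4 lie nearest to 0 in each case, at -0.46 for the downstream promoter site and -0.85 for the intron site, and no point reaches 0.

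The Bcl11a ratios were also computed without cocaine 5 and 6, the cocaine libraries with the largest count per read. Cocaine 5 had the highest cocaine count at the far upstream and downstream promoter sites and in the sum. Leaving it out could therefore only widen the fall there. Without both libraries the log2 ratio of the sum was -1.20. The log2 ratio was then -2.32 at the far upstream site, -1.08 at the downstream promoter site and -1.47 at the intron site. At the upstream promoter site it was -0.89, smaller in size than the -0.96 with all libraries.

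Among the lower sites the falls at Bcl11a ran from large to small. The median log2 fold change of the 474 lower sites was -1.14 in the authors' deposited table, with quartiles of -1.37 and -0.93. The far upstream and intron sites lay beyond the lower quartile, ranking 21st and 93rd by size of the fall, and the downstream promoter site, ranking 384th, lay nearer to 0 than the upper quartile. Among the 191 lower sites within 1 kb of a start, the median log2 fold change was -0.98 and the median of the mean saline counts 29.2. Both Bcl11a promoter sites, at -0.96 and -0.87, lay nearer to 0 than the first, and their saline means of 32.3 and 28.0 lay on either side of the second. The far upstream site had 1 of the lowest saline means of any lower site, with 0.633% of them below it.

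The authors' table also gives each group an enrichment ratio, over a background that no source used here describes. In saline it was 2.08 at the far upstream site, 2.44 and 3.31 at the upstream and downstream promoter sites and 3.20 at the intron site, and the median of lower sites was 2.58. In cocaine it was 0.45, 1.04, 1.45 and 1.08 in the same order, and the median was 1.14. The saline enrichment of the downstream promoter and intron sites was thus above the upper quartile of lower sites, 3.18, and that of the far upstream site below the lower quartile, 2.10.

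**Figure D4:**
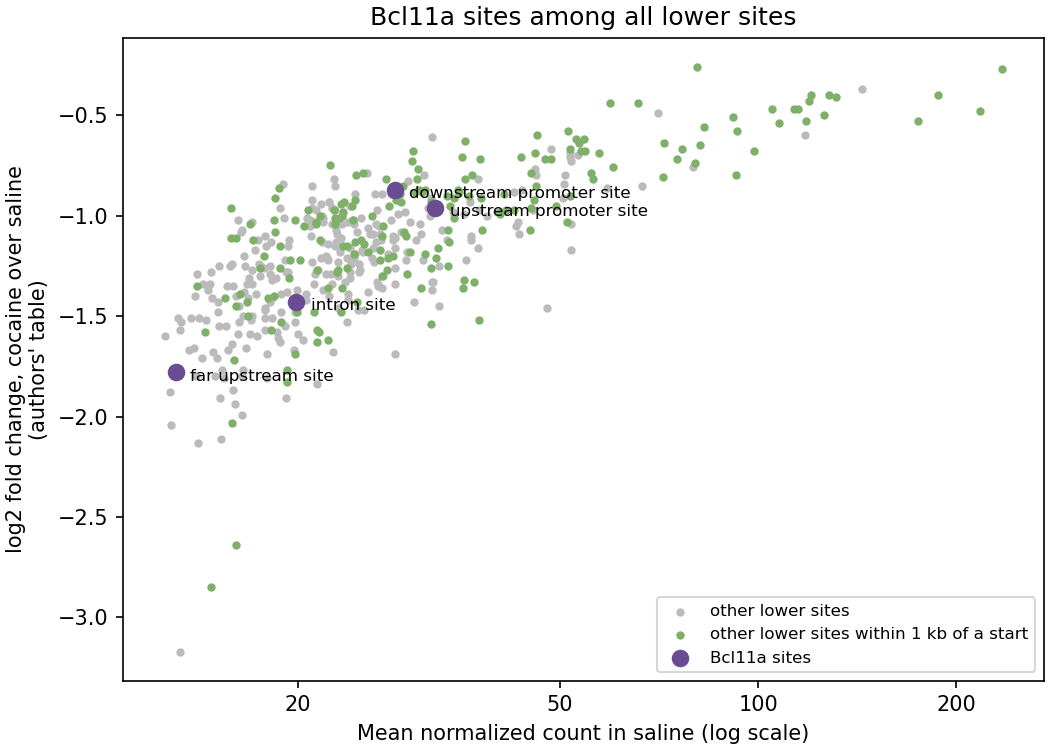
Log2 fold change in the authors' table against the mean normalized count in saline (log scale) for the 474 lower sites, with sites within 1 kb of a start in green and the 4 Bcl11a sites labelled. The Bcl11a sites run from -1.78 at a saline mean of 13.0, near the lowest saline mean of any lower site, to -0.87 at 28.0.

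By the authors' assignment of sites to genes, Bcl11a had the most lower sites of the 456 genes with any, 4. Ccnh, a cyclin gene, followed with 3, while 13 genes had 2 and 441 had 1. The number of lower sites was the reason Bcl11a was chosen. Its far upstream site lies outside the RefSeq gene, and its promoter sites are 801 bp apart. A lower site was listed for 3.46% of the 1214 protein-coding genes of 80 to 120 kb, the size range of Bcl11a, and for 1.8% of all protein-coding genes. The 4 sites spread over 118899 bp. Among the 444 regions formed by joining lower sites less than 100 kb apart, the only other regions of more than 2 sites had 3 each, and each of these was shared by sites annotated to different genes, at Rexo1 and at Bahcc1. The nearest other listed site to Bcl11a was a higher one at Pus10, 410 kb away.

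The 5 other sites whose profile over the 10 libraries was closest to the mean Bcl11a profile were at Sbds, 4930431P22Rik, Rilpl2, Zfp438 and Ghr. Likeness was the mean absolute difference in log2(normalized count + 1) after subtracting the saline mean. It was 0.16 at Sbds, a ribosome maturation gene, and 0.22 at Ghr, the growth hormone receptor gene, against a median of 0.97 over 943 other called sites and of 0.51 over all 474 lower sites, the Bcl11a sites included. The 4 Bcl11a sites differed from their own mean by 0.31 to 0.45. The Sbds promoter site had 9.93 ± 4.25 (SD, n = 6) after cocaine and 23.7 ± 6.86 (SD, n = 4) after saline. At all 5 sites every cocaine library lay below every saline library, as at 48.1% of the 474 lower sites. The 5 were picked for likeness to a mean of lower sites, so their separation is not a contrast with Bcl11a.

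None of the 4 Bcl11a sites overlapped a peak. The share of all 474 lower sites in a peak was 7.59% for the cocaine list and 3.59% for the saline list. The nearest cocaine peak to Bcl11a was 410 kb away, at Pus10, and the nearest saline peak 6864 kb away. Of all protein-coding genes 37.9% had a cocaine peak within 100 kb and 9.72% a saline peak.

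Bcl11b had 2 cocaine peaks within the gene, from the list that the authors called on cocaine libraries of both sexes pooled. The one nearer to the start (chr12:107976271-107976645) had a fold enrichment over the caller's background of 5.21 and a −log10 q of 5.30, and the other (chr12:107969955-107970316) 6.96 and 8.71. These are the authors' values for single pooled peaks and carry no replicate error. The second ranked 530th by fold among the 3467 cocaine peaks and the first 1480th, and both exceeded the median fold of 4.88. They were 375 and 362 bp long, below the median length of 487 bp, and their summits lay 6.40 kb apart, 29.5% and 36.3% of the way along the gene from its 5′ boundary at 108004145.

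The next cocaine peak, outside the 100 kb window, lay 175 kb away at Ccnk, a cyclin gene, with a fold of 6.27. No saline peak lay nearer to Bcl11b than 3722 kb. Peaks within the gene were found for 8.13% of protein-coding genes in the cocaine list, and 0.649% had 2 or more. Among the 1214 genes of 80 to 120 kb, the size range of Bcl11b, these shares were 14.4% and 1.81%. The cocaine list was longer than the saline list and pooled a different set of libraries, so the presence of Bcl11b peaks in the cocaine list alone was not tested as a difference between treatments. The nearest listed site to Bcl11b was a lower one at Evl, 601 kb away.

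Listed sites were also counted for genes of the partner complexes and of the neurons in which these factors work. In the BAF list of 26 genes, 1 had a lower site and 1 a higher site. In the list of 22 genes for NuRD and the COUP-TF nuclear receptors that partner the BCL11 proteins, none had either. In the list of 43 transcription factor genes of striatal and cortical projection neurons, there was 1 gene with a lower site and no gene with a higher site. The background over all protein-coding genes was 1.8% with a lower and 1.01% with a higher site, and counts of 0 or 1 gene in lists of this size are not a result about the lists.

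The lower BAF site was at the promoter of Arid1a, which encodes a DNA-binding subunit (chr4:133756802-133758300). The cocaine libraries ran from 30.14 to 65.52 and the saline libraries from 68.04 to 82.68, with means of 45.7 ± 13.7 (SD, n = 6) and 75.4 ± 6.14 (SD, n = 4) and no overlap. The log2 fold change at Arid1a was -0.72 in the authors' deposited table. Its log2 ratio was -0.67 without saline 4 and -0.59 without cocaine 5 and 6. The higher BAF site was at the promoter of Smarcd3, a subunit gene of muscle and neurons (chr5:24622802-24623800), with 19.9 ± 11.7 (SD, n = 6) after cocaine and 8.38 ± 3.62 (SD, n = 4) after saline. The groups did not overlap there, with a lowest cocaine count of 11.44 and a highest saline count of 11.27. The log2 fold change at Smarcd3 was 1.25 in the authors' deposited table, and the log2 ratio was 1.43 without saline 4 and 0.68 without cocaine 5 and 6. Lmo4, which encodes a LIM-only cofactor of cortical neurons, had the third site, a lower one at its promoter (chr3:144203702-144204800), with 11.9 ± 5.45 (SD, n = 6) after cocaine and 26.7 ± 12.4 (SD, n = 4) after saline, and the groups overlapped. The log2 fold change at Lmo4 was -1.17 in the authors' deposited table. Its log2 ratio was -0.83 without saline 4 and -1.19 without cocaine 5 and 6.

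Cocaine peaks lay in 8 of the 43 transcription factor genes. The highest folds were in Meis2 (6.00-fold), Zfp503 (5.66-fold) and Tshz2 (5.30-fold), which encode factors of striatal or cortical neurons. Folds were 4.88 in Sox5, 4.80 in Zeb2 and 3.86 in Pou3f3, against a median of 4.88 over all cocaine peaks. Saline peaks lay in 1 of the 43, the retinoic acid receptor gene Rarb. Rarb held 2 peaks in each list, at overlapping positions, with folds of 4.46 and 4.23 in the cocaine list. Like Bcl11b, Myt1l, which encodes a neuronal zinc finger factor, had 2 cocaine peaks and no saline peak, with folds of 4.75 and 4.86, below both Bcl11b peaks. The BAF list held 5 genes with a cocaine peak and 3 with a saline peak. The NuRD and COUP-TF list held 2 genes with a cocaine peak and none with a saline peak. The background over all protein-coding genes was 8.13% for cocaine peaks and 1.59% for saline peaks, with 14.4% for cocaine peaks among genes of 80 to 120 kb.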

How the data were processed

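Per the submitters' processing notes the build was mm10. The aligner, the settings of the peak caller and the version of diffReps are each not given in the sources used here. IgG libraries were not analysed here, and whether they served as background is not stated. Per the file headers and names, the authors called peaks with MACS on both sexes pooled within a treatment. Each deposited peak has a score, a fold enrichment (a ratio) and a −log10 q. The authors' deposited diffReps table gives each site's log2 fold change, p-value, adjusted p-value, mean normalized count (signal) and enrichment ratio from a negative binomial test, with the normalized count of each library joined in 1 cell. The sources do not say that libraries are separate animals, so SDs measure the spread between libraries.

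The count worth 1 read was found in each library by searching for the step of which the low values are whole multiples. A step was accepted only if nearly all values up to 20 reads were whole within 0.1 step. The 100% found in each library, on 29 values in saline 3, thus follows from the search and is not a separate check. The step was recovered within 1% in 30 of 30 simulated libraries of 956 sites, whose counts were whole multiples by construction. Log2 ratios are of means of normalized counts, cocaine over saline, with no pseudocount, and likeness used a pseudocount of 1. No test of the contrast was run, since the authors chose the sites by it. Members, gene lists and rules were chosen with earlier results of these data known. Genes named were all members, the 5 sites closest in profile to Bcl11a and all list genes with a site. Values named for list genes with peaks, Pus10, Evl, Ccnh, Rexo1 and Bahcc1 were chosen after they were seen. Gene positions, promoters and names came from RefSeq (GRCm38.p6). Scripts used Python 3.11.15, numpy 2.4.6, pandas 2.3.3 and matplotlib 3.10.9. In 2 IgG libraries the title contradicts the treatment field, and they entered no group.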

Additional observations from a re-analysis of the deposited data

Results flagged for a closer look

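In saline 4, the normalized count summed over the 4 Bcl11a sites was 148.45, against 72.24 to 79.48 in the other saline libraries. The gap to the nearest library was 0.905 of the group's range, above the critical value of Dixon's test for 4 samples. Of 10 sets of values checked this was the one that passed, and chance passes about 1 in 20 groups. At the single sites the gap of saline 4 was 0.335 to 0.788 of the range and did not pass. The 148.45 rests on 79 reads, the fewest of the saline libraries. The cause was not tested.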

How the results depend on the processing

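No paired analysis was possible because the values in the table carry no replicate numbers. Leaving out each library in turn, the log2 ratio ran from -2.23 to -1.47 at the far upstream site, from -1.05 to -0.85 at the upstream promoter site, from -1.04 to -0.46 at the downstream promoter site, from -1.65 to -0.85 at the intron site and from -1.22 to -0.80 for the sum. Under the other settings (a pseudocount of 1, medians, summed reads, libraries left out together) these 5 ratios kept their sign and moved by less than 1 SD between libraries. The median gave -0.58 at the downstream promoter site and -0.97 at the intron site. With cocaine 5, cocaine 6 and saline 4 all left out, an alternative chosen after seeing the data, the sum gave -0.89. The number of lower Bcl11a sites was 4 at an adjusted p below 0.01 and by position, and 2 when falls smaller than 1 on the log2 scale were left out, which removes both promoter sites. Counts of Bcl11b sites, of peaks near both genes and of list genes with a lower site stayed within 1.5 times under all settings run, with 3 cocaine peaks within 250 kb of Bcl11b. The search for E2F motifs in the sites themselves was not run, since no genome sequence was used here. The far upstream site had 0 to 5 reads in each cocaine library, which limits the size of its ratio.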
